A study of Homo sapiens with 4 samples.

Results

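The open chromatin regions of 10 Notch pathway genes were examined in the human melanoma line A375: the receptors NOTCH1, NOTCH2, NOTCH3 and NOTCH4, the ligands JAG1, JAG2, DLL1, DLL3 and DLL4, and the target gene HES1. Every listed region that overlapped the RefSeq span of one of these genes, extended by 10 kb on both sides, was taken. This gave 42 of the 125986 regions of the authors' deposited table, 23 at receptors, 15 at ligands and 4 at HES1. The assay was ATAC-seq: the enzyme Tn5 places sequencing adapters where DNA is accessible, so reads pile up in open chromatin. All cells were of 1 line, and were exposed for 48 h to octanoate (a fatty acid of medium chain length) at 1 mM or to isopropanol, the vehicle. Each group held 2 libraries, and the labels do not say whether these came from separate cultures. Coordinates are those of the table in hg38, with starts raised by 1.

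Notch receptors are membrane proteins that are cut when a Jagged or Delta-like ligand on a neighbouring cell binds them. The released intracellular part enters the nucleus, joins the DNA-binding protein RBPJ and a Mastermind coactivator, and activates genes such as HES1, which encodes a basic helix-loop-helix repressor. In the melanocyte lineage the pathway is known for keeping melanocyte stem cells and for roles in melanoma growth that depend on the context.

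The table gives 1 mean, 1 fold change and 1 p-value per region and nothing per library, so values in every sample cannot be shown. Its mean is a normalized read count over the 4 libraries. An adjusted p exists for 11185 regions, here called tested, whose mean was 63.8 or more; that limit stands for 498 to 618 reads over the 4 libraries together. Of these, 114 regions (1.02%) passed an adjusted p of 0.05 by the DESeq2 test of the authors' deposited table, and 114 of the 114 were higher after octanoate. The median log2 fold change of all nuclear regions was 0.23 and that of tested regions 0.19, so changes are read against these medians rather than against 0. Of the 5 melanocytic markers whose start was used, MITF and DCT had a region within 1 kb of it, while MLANA, TYR and TYRP1 had none. SOX10 and PMEL had 4 regions each in their windows and S100B had 1. KRT5 (keratinocytes) and PTPRC (leukocytes) had no region at the start, and 1 and 10 regions elsewhere in their windows. Of markers whose start was not examined, counted over the whole window, KRT14 had 2 regions, KRT1 0, CD3E 3, PECAM1 7, CDH5 6, EPCAM 3 and CDH1 5; the part of other cell types in the results was not tested.

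HES1 is shown first because its promoter carries the sequence through which Notch is known to act on it. The 250 bases before the annotated start were read from the RefSeq promoter table (GRCh38.p14), which held 8 of the 10 genes and lacked DLL1 and DLL3. HES1 and JAG1 were chosen because they alone among these 8 had a tested region over their own start. Capitals mark each match to the RBPJ motif TGGGAA on either strand. The HES1 sequence is chr3:194135898-194136147 on the plus strand and the JAG1 sequence is chr20:10674000-10674249 on the minus strand.
HES1: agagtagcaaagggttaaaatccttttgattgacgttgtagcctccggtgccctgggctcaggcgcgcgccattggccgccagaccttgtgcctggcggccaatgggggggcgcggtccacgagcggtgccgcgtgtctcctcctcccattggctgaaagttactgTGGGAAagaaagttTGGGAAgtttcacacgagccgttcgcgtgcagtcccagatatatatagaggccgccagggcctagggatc
JAG1: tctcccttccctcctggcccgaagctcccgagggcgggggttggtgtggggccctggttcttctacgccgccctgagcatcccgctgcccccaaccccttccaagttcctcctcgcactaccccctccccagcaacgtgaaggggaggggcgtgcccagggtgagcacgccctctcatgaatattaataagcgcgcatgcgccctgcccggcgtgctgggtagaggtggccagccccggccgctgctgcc

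The HES1 promoter held 2 matches, beginning 84 and 70 bases before the start and both on the strand of the gene. JAG1 and the other 6 promoters held none. Over 15842 protein-coding genes with an entry, 20.2% of promoters of this length had at least 1 match and 2.65% had 2 or more. The AP-1 motif TGANTCA was found in 1 of the 8 promoters (NOTCH4) against 5.04% of all, the SOX motif ACAANG in 2 (HES1 and NOTCH4) against 26.1%, and the E-box CANNTG in 2 (NOTCH4 and JAG2) against 57.8%. The searches covered both strands, and a SOX match 25 bases before the NOTCH4 start was followed by its AP-1 match at 18 bases. GC content ran from 58.0% at NOTCH4 to 81.6% at JAG2, beside a median of 62.4% over all promoters. CpG dinucleotides numbered 3 at NOTCH4 and 17 to 38 at the other 7, beside a median of 17. A match describes letters in this window and is not a measured binding site.

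Accessibility at the starts differed widely among the members. A listed region lay within 1 kb of the annotated start in 6 of the 8 genes, beside 11874 of the 15842 protein-coding genes. HES1 had the highest level among the 6: its region chr3:194133609-194138289, 4681 bp long, has a mean of 300.4 normalized reads in the authors' deposited table, or 64.2 per kb. This placed it at percentile 63.7 per kb among the 11874 genes, and at percentile 98.6 by the mean itself. JAG1, a ligand with roles in many tissues, followed. Its region chr20:10671368-10675265 has a mean of 217.4 in the authors' deposited table over 3898 bp, or 55.8 per kb (percentile 53.1). Next came NOTCH1, the receptor most studied in human cancers, at 40.7 per kb (percentile 31.6). DLL4, known for its part in vessel sprouting, stood at 25.8 per kb (percentile 10.4). JAG2 (20.1 per kb, percentile 4.28) and NOTCH2 (16.4 per kb, percentile 1.85) were lowest per kb. The order depends on dividing by region width: by the mean itself JAG1 stood at percentile 95.4, NOTCH1 at 32.2, NOTCH2 at 19.6, JAG2 at 8.64 and DLL4, then the lowest, at 6.55. The spread of these levels between libraries was not measured, so neighbours in this order cannot be said to differ. NOTCH3 and NOTCH4 had no listed region at the start. Within their windows the nearest lay 5264 bp from the NOTCH3 start and 27158 bp from the NOTCH4 start. Regions more than 10 kb before the NOTCH4 start were outside its window and could lie nearer.

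**Figure D1:**
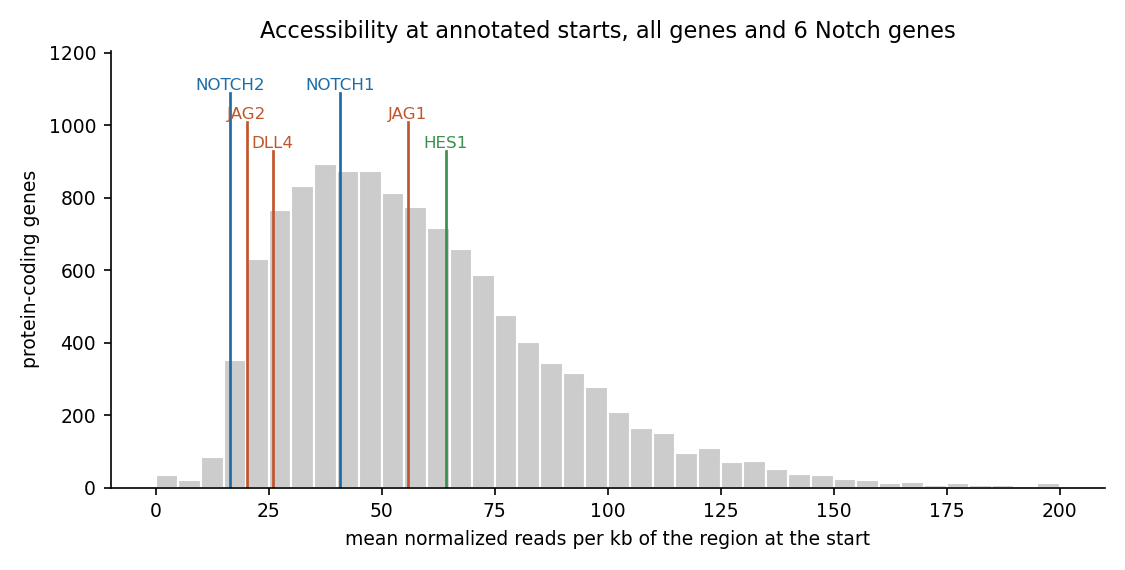
Mean normalized reads per kb (horizontal axis) of the region at the annotated start for 11874 protein-coding genes, as a histogram of genes in bins of 5, leaving out the 12 genes at or above 200. Coloured lines mark NOTCH1 and NOTCH2 (blue), JAG1, JAG2 and DLL4 (orange) and HES1 (green); HES1 at 64.2 and JAG1 at 55.8 lie above the median of 53.6, and the other 4 lie below it.

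The HES1 locus was open over an unusual share of its length. Its 4 regions took up 37.4% of the window of gene and flanks, and 5 of 20033 protein-coding genes had a higher share, all of them among the 5691 genes that span at most 10 kb. The median share was 3.64% over all genes and 4.67% over those short genes. DLL1 (13.6%) and JAG1 (10.1%) stood at percentiles 95.5 and 90.1, while DLL3 (2.22%), JAG2 (2.47%), NOTCH2 (2.79%) and NOTCH3 (2.84%) lay below the median.

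The regions of HES1 were a 547 bp stretch that ended 3232 bp before the start, the broad region over the start and most of the gene body, and 2 regions after the gene. The last of these, chr3:194140574-194142573, has a mean of 141.3 in the authors' deposited table and 70.7 reads per kb, the highest value per kb among the 42 regions. In the windows of NOTCH1 and NOTCH4 the highest means lay at the starts of neighbouring genes. The strongest region of the NOTCH1 window, listed with a mean of 129.7 in the authors' deposited table, lay at the start of SEC16A, which encodes a protein of endoplasmic reticulum export sites. The strongest of the NOTCH4 window, listed at 114.3 in the authors' deposited table, lay at the start of GPSM3, and a weak region there lay at the start of PBX2, a homeodomain factor gene. Within its own span NOTCH1 had a region centred 19494 bp after its start, listed at 60.6 in the authors' deposited table. The strongest NOTCH3 region, listed at 26.7 in the authors' deposited table, had its near edge 23055 bp after the start. The strongest DLL1 region, chr6:170290160-170292889, listed at 47.7 in the authors' deposited table, covered the end of the span with the higher coordinate. DLL3, an atypical ligand that is known to hinder Notch signalling in the same cell, had 1 region, listed at 22.1 in the authors' deposited table.

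**Figure D2:**
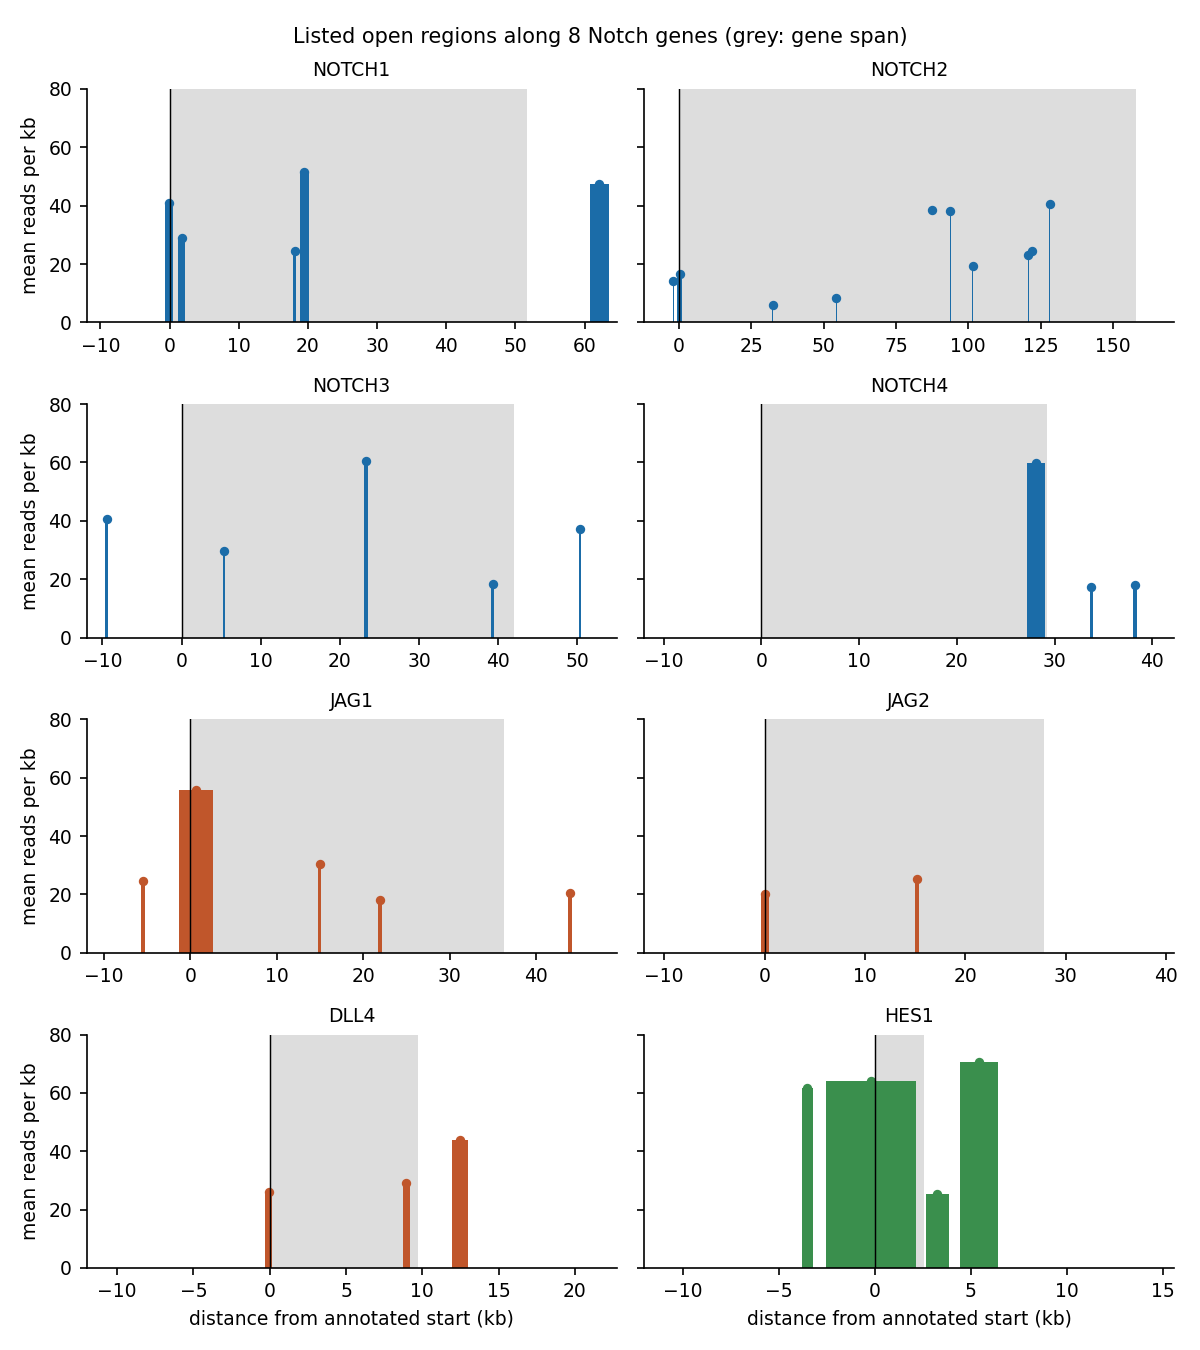
Listed regions (coloured bars, as wide as the region; dots mark their centres) along the 8 genes with an annotated start, by distance from that start in kb along the gene and mean normalized reads per kb. Grey marks the gene span; NOTCH3 and NOTCH4 have no bar at 0, and the HES1 bars fill much of the span and its surroundings, up to 70.7 reads per kb.

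The main comparison asked whether accessibility at these genes differed between octanoate and vehicle. By the DESeq2 test of the authors' deposited table, 0 of the 42 regions passed an adjusted p of 0.05, beside 1.02% of all tested regions; 5 of the 42 were tested. At an adjusted p of 0.1 the count was again 0, beside 2.98% of tested regions. At an unadjusted p under 0.05 it was 2 of 42 (4.76%), both higher after octanoate and neither tested, beside 3.76% of all regions in either direction and 3.58% higher. With the tested median subtracted, the counts were 0 of 5 by adjusted p (background 0.0536%) and 0 of 42 by unadjusted p (background 1.68%). The median log2 fold change of the 42 regions was 0.22, against 0.23 over all nuclear regions. Values above 0 made up 32 of the 42, or 76.2%, against 72.1% of all nuclear regions. By role, receptors (median 0.23, 19 of 23 above 0) and HES1 (0.25, 4 of 4) lay near the general median, and ligands (0.12, 9 of 15) below it. JAG1 supplied 5 of the 15 ligand regions, with 1 above 0 and a gene median of -0.14. Gene medians at DLL3 (0.12, 1 region) and DLL1 (0.16, 4 regions) were also below the general median. Those at DLL4 (0.28, 3 regions) and JAG2 (0.43, 2 regions) were above it. Regions of a gene are not replicates of a role.

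HES1 had the deepest coverage and the tightest values. The authors' deposited table lists its start region at a log2 fold change of 0.23 (SE 0.13, p 0.0748, DESeq2 adjusted p 0.393). The fold change and mean imply 277 normalized reads for vehicle and 324 for octanoate. A 95% normal interval from the deposited SE ran from -0.023 to 0.47. The authors' deposited table lists the region chr3:194140574-194142573 at 0.27 (SE 0.18, DESeq2 adjusted p 0.472). Both values sat close to the general offset, at percentiles 58.2 and 67.5 of tested regions. A weaker region between them, chr3:194138815-194140025, had the highest HES1 value: the authors' deposited table lists it at 0.89 (SE 0.38, unadjusted DESeq2 p 0.0201). Its implied means were 21.4 for vehicle and 39.7 for octanoate, from 238 to 296 reads over the 4 libraries. Its mean of 30.6 in the authors' deposited table lay under the limit for an adjusted p, and with the tested median subtracted its unadjusted p was 0.0660. The region before the start was the lowest of the 4, listed at 0.07 (SE 0.36) by the authors' deposited table.

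Among the ligands, the gene medians of JAG1 (-0.14), DLL3 (0.12) and DLL1 (0.16) lay below both general medians, and those of DLL4 (0.28) and JAG2 (0.43) above them. JAG1 had the 1 tested ligand region. The authors' deposited table lists its start region at a log2 fold change of -0.10 (SE 0.15, DESeq2 adjusted p 0.782). Of all tested regions, 5.12% had a value as low or lower. The implied means were 225 for vehicle and 210 for octanoate, and the 95% interval of -0.39 to 0.19 held 0 and reached the tested median at its upper end. With that median subtracted the value was -0.29, with an unadjusted normal p of 0.0511 and an adjusted p of 1. The JAG1 start was thus low among tested regions without passing a test. Of its 5 regions 4 were below 0, with a gene median of -0.14. The lowest pair, -0.72 and -0.70 by the authors' deposited table, had SEs of 0.71 and 0.73.

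The other ligands had fewer reads. For JAG2, the authors' deposited table lists 0.30 (SE 0.55) at the start and 0.55 (SE 0.63) inside the gene. DLL4 values in the authors' deposited table ran from -0.29 (SE 0.31) in its strongest region, which lay past the gene, to 0.64 (SE 0.57) near the end of its span. The DLL4 start is listed at 0.28 (SE 0.62) by the authors' deposited table. No DLL4 or JAG2 value was more than 1.96 SEs from 0. DLL1, a ligand known from tissue patterning, had a gene median of 0.16 over 4 regions, which was -0.067 over the 2 regions left without the flanks and -0.069 with the median of all nuclear regions subtracted. For DLL1 the authors' deposited table lists its strongest region at 0.12 (SE 0.30). The DLL4 gene median was 0.28, and 0.46 over 2 regions without the flanks. The single DLL3 region is listed at 0.12 (SE 0.45) by the authors' deposited table. Over all 15 ligand regions, 5 of them at JAG1, the median was 0.12, and 9 were above 0.

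Receptor regions were above 0 in 19 of 23 cases, with a median of 0.23. NOTCH1 held 3 of the 4 below 0. Its 5 regions had a median of -0.039, and the authors' deposited table lists its start at -0.09 (SE 0.31). Its highest value, 0.22 (SE 0.19, DESeq2 adjusted p 0.611) by the authors' deposited table, belonged to the region at the SEC16A start. NOTCH2, a receptor widely expressed in adult tissues, had 9 of 10 regions above 0 and a median of 0.33. Its regions were weak, with means of at most 30.1 and SEs from 0.39 to 1.63 in the authors' deposited table. At the NOTCH2 start the authors' deposited table lists 0.17 (SE 0.39).

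All 5 NOTCH3 regions were above 0, with a median of 0.24. The highest value of all 42 regions lay before this gene, in chr19:15210273-15210647, whose near edge was 9278 bp from the start. The authors' deposited table lists it at 1.22 (SE 0.58, unadjusted DESeq2 p 0.0348). It rested on 118 to 148 reads over the 4 libraries, with implied means of 9.13 for vehicle and 21.3 for octanoate. With the tested median subtracted its unadjusted p was 0.0738. NOTCH4 is a receptor known from endothelial cells. The authors' deposited table lists the GPSM3 start in its window at 0.21 (SE 0.19, DESeq2 adjusted p 0.633), and the 2 weak regions there at 0.18 (SE 0.78) and 0.38 (SE 0.88).

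**Figure D3:**
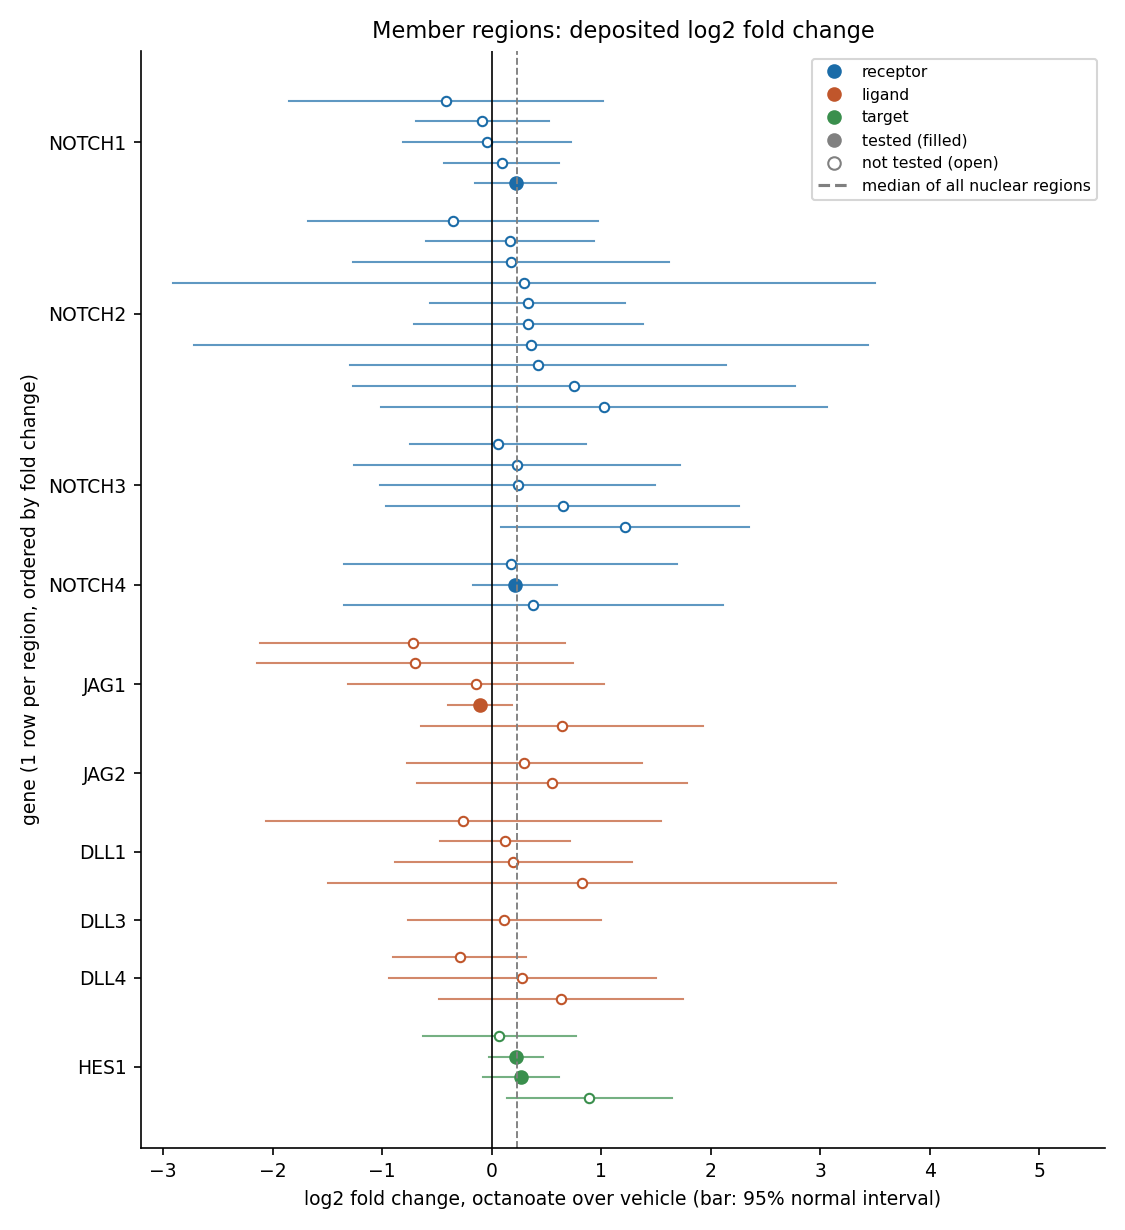
Deposited log2 fold change, octanoate over vehicle (horizontal axis), of each of the 42 regions, grouped by gene, with 95% normal intervals from the deposited standard errors. Filled points are the 5 tested regions and open points the 37 not tested; 2 intervals, 1 at NOTCH3 and 1 at HES1, lie wholly above 0, and the dashed line marks the median of all nuclear regions, 0.23.

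The precision of the fold changes varied widely among the regions. The deposited SE was 2.18 times the SE from counting alone in the median member region, and 2.19 times over all nuclear regions. How much of it is spread between cultures or libraries was not tested. The SEs of the authors' deposited table ran from 0.13 at the HES1 start to 1.63 at a NOTCH2 region with 17 to 23 reads in the 4 libraries together. In the 37 regions without an adjusted p the median SE was 0.63, so a doubling, 1 on the log2 scale, was not detectable in most of them. NOTCH1, JAG2, DLL1 and HES1 lay near an end of their chromosome, at 1.67, 1.70, 0.446 and 4.03 Mb from its outermost listed region. Their gene medians of -0.039, 0.43, 0.16 and 0.25 lay on both sides of the general median.

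The other 50 genes of the pathway had 287 regions, of which 48 were tested, and MFNG had none. By the DESeq2 test of the authors' deposited table, 1 of the 48 passed an adjusted p of 0.05, beside 1.02% of all tested regions, and it was higher after octanoate. At an unadjusted p under 0.05 the count was 4 of 48 (8.33%), all higher, beside 14.9% of all tested regions in either direction and 14.8% higher. The median log2 fold change over the 287 regions was 0.17. The called region fell in the window of HES5, a Notch target of neural progenitors; the authors' deposited table lists it at 0.61 (SE 0.17, DESeq2 adjusted p 0.0305). It lay at the start of PANK4, a pantothenate kinase family gene, 2950 bp from the HES5 start, and 2.52 Mb from the outermost listed region of chromosome 1. Its adjusted p was 0.899 with the tested median subtracted and 0.261 with all regions adjusted together.

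The remaining 3 lay within 1 kb of the start of their own gene. For HES3, a further HES family repressor gene, the authors' deposited table lists 0.58 (SE 0.19, DESeq2 adjusted p 0.0943). For FURIN, the protease that cuts Notch receptors during their maturation, the authors' deposited table lists 0.61 (SE 0.25, DESeq2 adjusted p 0.191). For PSEN2, a catalytic subunit of the gamma-secretase that releases the intracellular part of Notch, the authors' deposited table lists 0.53 (SE 0.23, DESeq2 adjusted p 0.236). With the tested median subtracted, the unadjusted normal p was 0.0418 for HES3, 0.0855 for FURIN and 0.137 for PSEN2, and the adjusted p was 1 for each. By function, medians of the deposited log2 fold change were 0.17 over 13 gamma-secretase regions and 0.23 over 14 regions of sheddases and processing enzymes. The nuclear complex and its corepressors stood at 0.16 over 151 regions, with RBPJ itself at 0.07 over 21 and MAML2, a Mastermind coactivator, at 0.16 over 53. Glycosylation genes stood at 0.19 (16 regions), ligand endocytosis genes at 0.09 (16 regions), and inhibitors and turnover genes at 0.24 (43 regions). Further HES and HEY family genes with NRARP stood lowest, at 0.05 over 34 regions. The regions of this group lay on both sides of the general median, with quartiles of -0.18 and 0.53. Within this group, gene medians, chosen after they were seen, were lowest at HEYL (-0.37, 3 regions) and NRARP (-0.29, 6 regions), a feedback inhibitor of Notch. They were highest at HES2 (0.59, 3 regions) and HES5 (0.61, 5 regions).

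**Figure D4:**
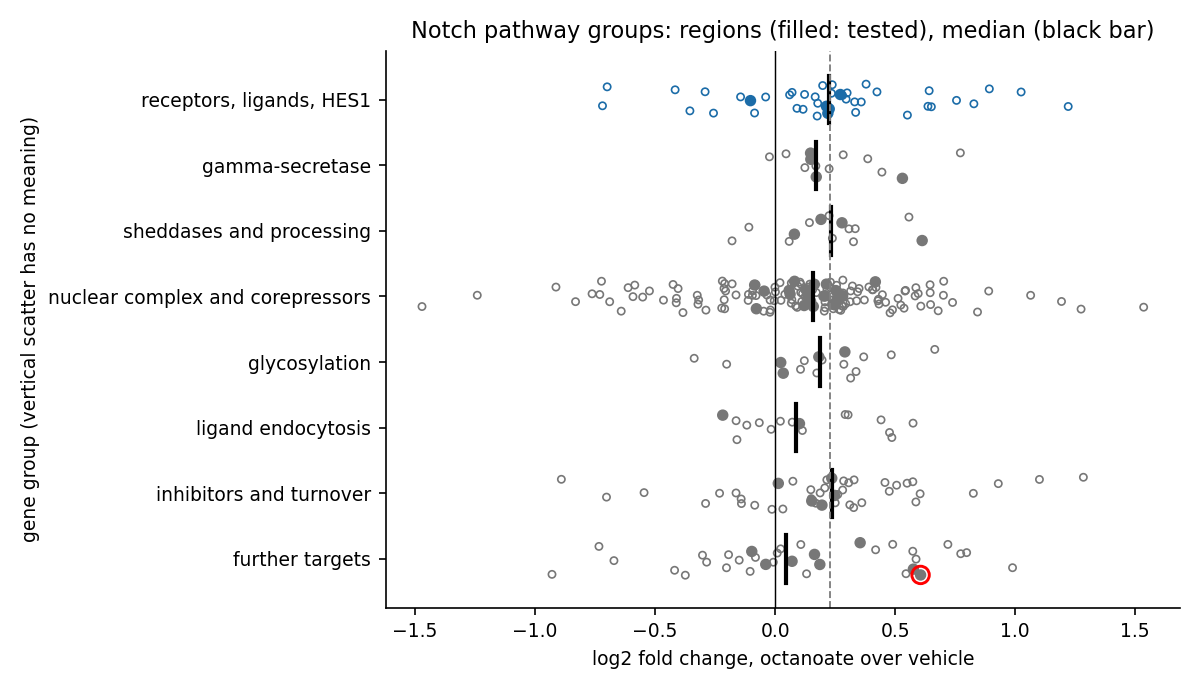
Deposited log2 fold change, octanoate over vehicle (horizontal axis), of every region of the receptors, ligands and HES1 (blue) and of 7 groups of other pathway genes (grey), with filled points for tested regions and black bars for group medians. The red ring marks the region in the HES5 window at 0.61, the 1 region with an adjusted p under 0.05; the dashed line is the median of all nuclear regions, 0.23.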

How the data were processed

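ATAC-seq of 4 A375 libraries, 2 per group, was analysed from 1 deposited table. Per the submitters' processing notes, the tools were Trim Galore, cutadapt, FastQC, Bowtie2, Picard, MACS2, featureCounts, DESeq2 and bedtools 2.29.1, with build hg38; settings, merging of regions, treatment of reads that map to several places and any Tn5 shift are not given in the sources used here. Per the file headers, the deposited signal is a mean normalized read count, the log2 fold change is octanoate over vehicle with its standard error, and the score is the Wald statistic. The deposited p-value is two-sided. The deposited adjusted p equalled Benjamini-Hochberg adjustment over 11185 regions to within 1.69e-14 and was listed as 1 in the other 114801, treated as not tested. Columns per library numbered 0, so no library depth or count test was possible.

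With Python 3.11.15, pandas 2.3.3 and scipy 1.17.1, genes and starts were taken from RefSeq GRCh38.p14 tables. Starts in the deposited table were taken to count from 0, which it does not state, and were raised by 1. Regions were then joined to gene spans extended by 10 kb. Exons and introns were not used here. Reads over the 4 libraries came from the decimals of low means, which were whole multiples of 4 steps between 0.413 and 0.512 normalized reads; no step was assigned to a sample. Implied group means assume that both groups average to the deposited mean. Centring subtracts the median of tested regions and takes p from the deposited standard error. Adjustment, centring and steps were tested on simulated data, with equal numbers of raised and lowered regions. The deposited calls were all higher, so centring was not tested under change in a single direction. The motif search used the first listed start of each gene.

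Named regions were, per gene, the region at the start, the highest mean and the smallest p; named pathway genes had a tested region at an unadjusted p under 0.05. Values of further regions and of group medians were added after they were seen. Members, lists and rules were chosen with earlier results of these data known. The result for 1 leukocyte marker is not reported here. P-values rest on the deposited standard errors from these 4 libraries. How far those reflect the spread between libraries or cultures was not tested.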

Additional observations from a re-analysis of the deposited data

How the results depend on the processing

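The count of 0 member regions with an adjusted p under 0.05 (DESeq2) stayed at 0 with adjustment over all regions, at an adjusted p of 0.1, with a doubling or halving required, after centring on the tested median, with no extension of the span (28 regions, 0 at an unadjusted p under 0.05), with 50 kb on both sides (95 regions, 7 at that p, beside 3.76% of all regions), with regions near no other gene and, added after the data were seen, without regions at another gene's start. With 5 tested regions such counts say little about stability. The median of 0.22 became -0.0068 when the median of all nuclear regions was subtracted, by construction; the remaining settings moved it by less than 0.1, and leaving out each gene in turn gave 0.21 to 0.24. The count of 1 pathway region became 0 with adjustment over all regions, 2 at an adjusted p of 0.1, 0 after centring and, added later, 0 without regions at another gene's start. Centring changed the sign of 4 named regions: the NOTCH2 start (-0.020), the strongest NOTCH3 region (-0.13), the strongest DLL1 region (-0.064) and the DLL3 region (-0.070). Without the flanks the DLL1 median was -0.067 and the DLL4 median 0.46, over 2 regions each; the count of 2 at an unadjusted p under 0.05 also came from the flanks. No paired analysis was possible because single libraries have no values here; count tests and fits without a replicate were not done for that reason.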

Other observations

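NOTCH2 has near-identical partial copies on chromosome 1, NOTCH2NLA, NOTCH2NLB, NOTCH2NLC and NOTCH2NLR, which were looked at after the level per kb at the NOTCH2 start was seen. Each had 1 listed region at its start. Their levels were 7.17 (NOTCH2NLA), 2.60 (NOTCH2NLB), 24.7 (NOTCH2NLC) and 26.5 (NOTCH2NLR) normalized reads per kb, beside 16.4 at NOTCH2. How reads shared by these copies were assigned is not given in the sources used here, so these levels are uncertain, and the part of such reads in the NOTCH2 level was not tested.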
